A study of Drosophila melanogaster with 3 samples.

Results

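A set of 10 Drosophila melanogaster genes that pattern the legs, antennae and wings (Dll, ap, al, Lim1, B-H1, B-H2, bab1, bab2, ss and vg) was examined for binding of Pif1A in whole pupae. The 10 were named by symbol and are 10 of the 13968 protein-coding genes on the assembled arms. Every peak summit inside one of these genes or within 5 kb of either end was taken, which gave 20 of the 7283 summits of the authors' optimal list. Pif1A, named for its interaction with a PFTAIRE-type kinase, carried a C-terminal GFP in a stable transgenic line and was recovered with an antibody against GFP. The pupae were of both sexes and of unstated age. The series is 1 group of 3 biological replicates, in which every animal carried the tagged protein, and untagged flies were not analysed here, so signal that does not need Pif1A could not be told apart from binding. Since the chromatin came from whole animals, no summit can be placed in a leg, wing or antennal cell, and a site used in few cells cannot be told apart from one used weakly in many.

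A fly limb is built from an imaginal disc in which transcription factors are turned on in nested rings along the axis from body wall to tip. Dll, a homeodomain factor, is needed for everything beyond the base of the leg and antenna. The paired BTB-domain genes bab1 and bab2 and the paired Bar homeodomain genes B-H1 and B-H2 act in the tarsus, the ringed foot, and al and Lim1 act at its tip. The bHLH-PAS factor gene ss gives the distal antenna its identity. In the wing, the LIM-homeodomain factor ap sets the dorsal compartment and vg, through its DNA-binding partner Scalloped, sets wing identity. During pupal life these discs become the adult appendages.

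Sequences reaching 50 bases to either side of a summit are given for the highest summits of al, Lim1 and bab2. For bab1 they are given for the highest summit and the 3 intronic ones found among the 7283 highest peaks of all 3 replicates. At Lim1, bab1 and bab2 they are only part of the summits counted. All are on the plus strand of dm6 (BDGP Release 6, RefSeq). Capitals mark a match to 1 of 10 motifs, searched on both strands. The al window is chr2L:382943-383043, and the Lim1 window is chrX:8755488-8755588. The bab1 windows are chr3L:1032760-1032860 (beyond the 3' end), chr3L:1089442-1089542, chr3L:1097094-1097194 and chr3L:1087469-1087569 (intron 1). The bab2 window is chr3L:1167166-1167266.
al, intron 1: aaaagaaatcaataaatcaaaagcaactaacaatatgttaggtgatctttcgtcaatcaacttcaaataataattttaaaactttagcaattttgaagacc
Lim1, downstream flank: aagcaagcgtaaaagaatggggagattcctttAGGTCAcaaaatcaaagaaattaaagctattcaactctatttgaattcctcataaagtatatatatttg
bab1, downstream flank: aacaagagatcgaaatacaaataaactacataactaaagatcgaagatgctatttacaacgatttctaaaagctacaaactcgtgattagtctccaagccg
bab1, intron 1, first by rank: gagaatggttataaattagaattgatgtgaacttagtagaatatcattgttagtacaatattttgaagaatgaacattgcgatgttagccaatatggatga
bab1, intron 1, next by rank: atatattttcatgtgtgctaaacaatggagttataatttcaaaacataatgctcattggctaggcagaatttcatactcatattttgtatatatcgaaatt
bab1, intron 1, last by rank: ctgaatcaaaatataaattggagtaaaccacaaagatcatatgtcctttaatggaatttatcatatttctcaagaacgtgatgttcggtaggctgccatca
bab2, intron 2: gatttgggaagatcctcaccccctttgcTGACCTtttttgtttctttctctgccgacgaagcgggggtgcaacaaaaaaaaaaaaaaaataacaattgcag
The match in the Lim1 window and the match in the bab2 window, the latter on the minus strand, are both to AGGTCA, a core motif of nuclear receptors. The other 5 windows hold no match to any of the 10 motifs.

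Pif1A summits were found at 6 of the 10 genes and 12 of the 20 lay at bab1 and bab2. The gene bab1 had 8 optimal summits, bab2 had 4, Dll and Lim1 had 3 each, and al and vg had 1 each. The genes ap, B-H1, B-H2 and ss had none. Among all protein-coding genes, 41.2% had an optimal summit inside or within 5 kb, and among the 2879 whose spans lie in the range of these 10 genes (5801 to 64721 bp) the share was 63.6%. The 6 of 10 is thus near the share for genes in that span range. Those genes are shorter, with a median span of 12316 bp beside 21085 bp for the members. A longer window can hold more summits, and the comparison was not matched further for length. Of the 6, vg counts only through a summit at promoters of other genes. The members' median was 1 summit per gene, beside 1 for the genes of that span range and 0 for all protein-coding genes. The same 6 genes had a summit among the 7283 highest peaks of each replicate. With 1 group there is no contrast to test, and all counts here are given without a p-value.

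**Figure D1:**
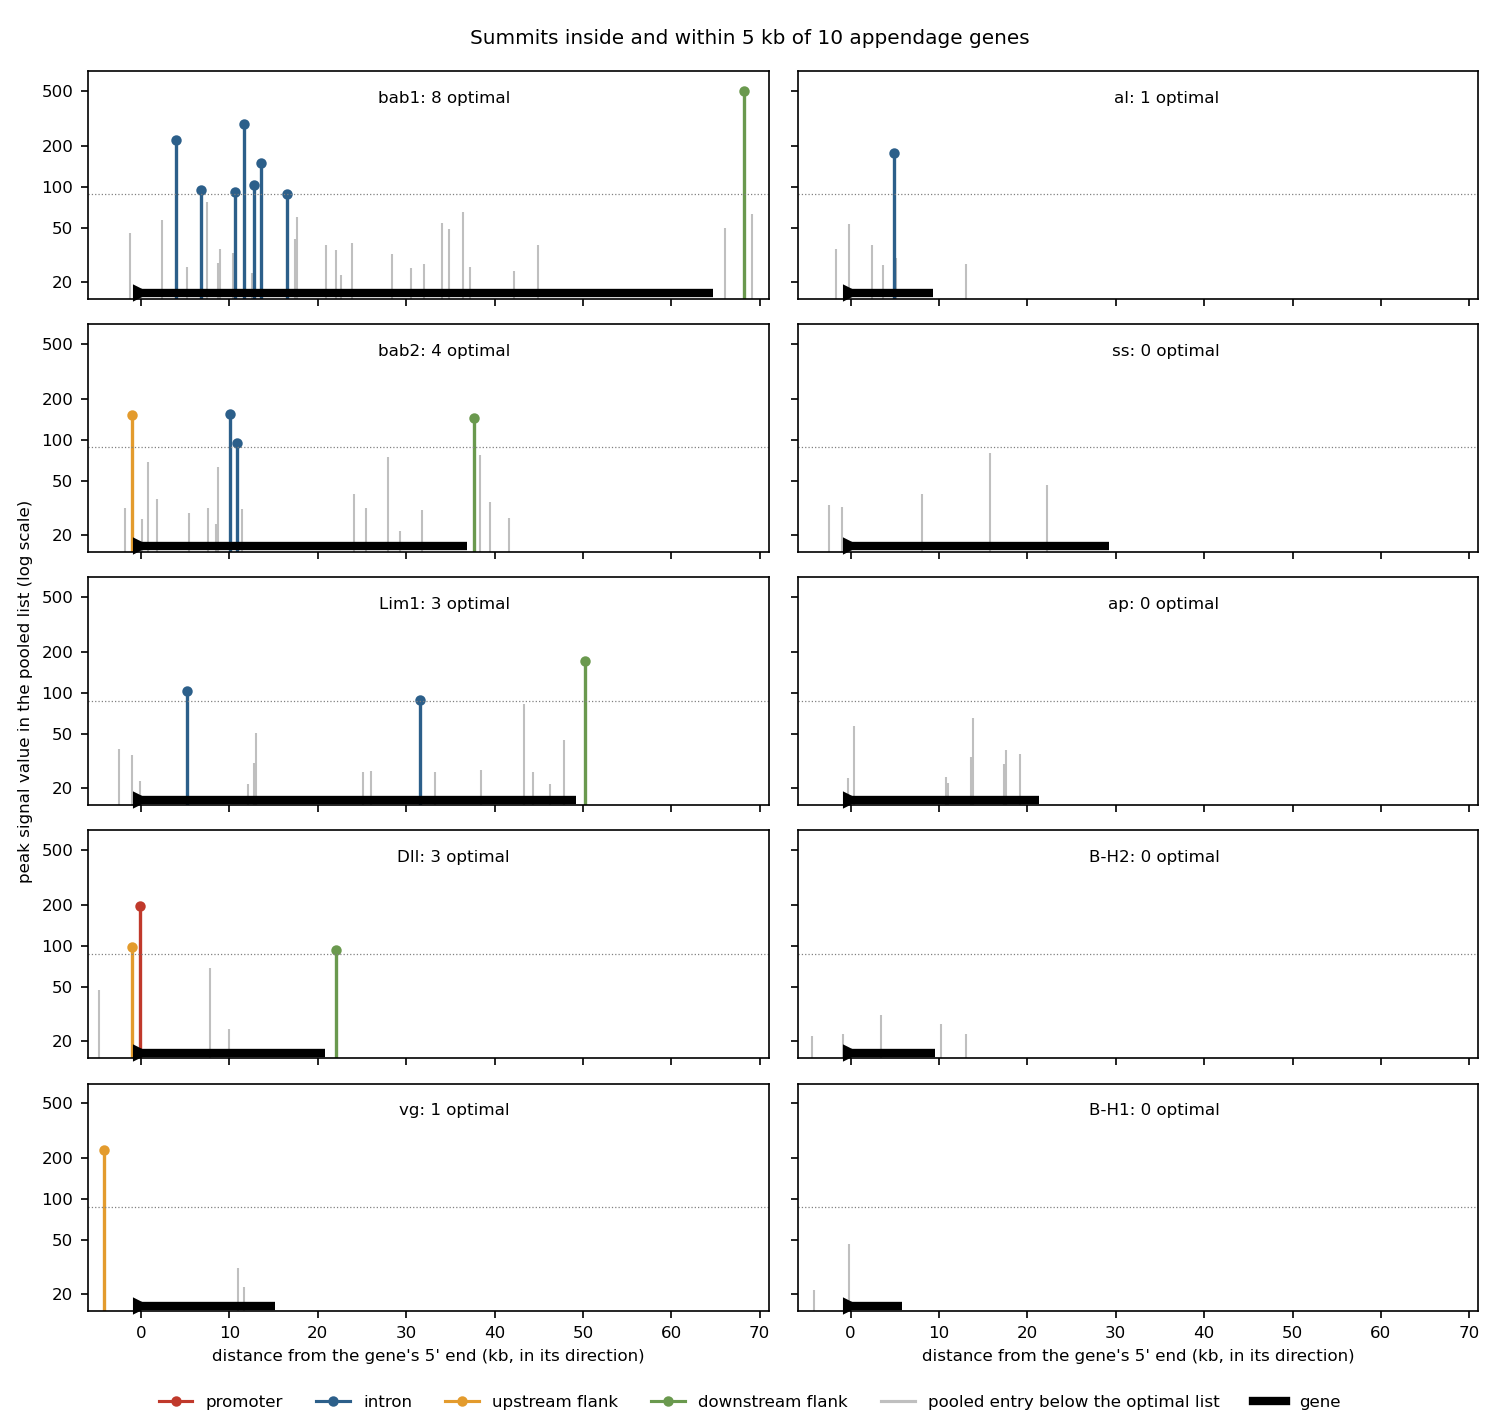
Each panel is 1 gene drawn in its own direction, with distance from its 5' end in kb on the x axis and the peak signal value of the pooled list on a log y axis. Coloured stems are the 20 optimal summits by class, grey stems are pooled-list entries below the optimal list, and the dotted line is its lowest signal value, 87.7. The 7 intronic stems of bab1 stand in the first 17 kb of the gene, and ss, ap, B-H2 and B-H1 have grey stems only.

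Introns and flanks carried all but 1 of the 20 summits. Introns held 12 of the 20, flanks 7 (3 upstream and 4 downstream) and promoters, meaning within 500 bp of a TSS of the member, 1. Of the flank summits, 1, the one at vg, lay within 500 bp of TSSs of other genes, Nmda1 and AspRS. No optimal summit lay in an exon of a member outside the promoter. Classed in the same way at the protein-coding genes in the members' span range, 49.2% of 5562 pairs of a summit and a gene were intronic, 29.3% were in a flank and 20.2% at a promoter. The members' shares were 60.0%, 35.0% and 5.0%. With 20 summits, each share of the members moves by 5.0 percentage points per summit, and the differences were not tested. Of the summits each replicate placed in its top 7283, 8 of 14 were intronic in replicate 1, 12 of 19 in replicate 2 and 7 of 13 in replicate 3, and each replicate had 1 promoter summit. That promoter was that of Dll in every list. The share of members with a promoter summit was 1 of 10, where 14.1% of all protein-coding genes and 30.0% of those in the members' span range had one. A promoter distance of 1000 bp would add bab2 and give 2 of 10.

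**Figure D2:**
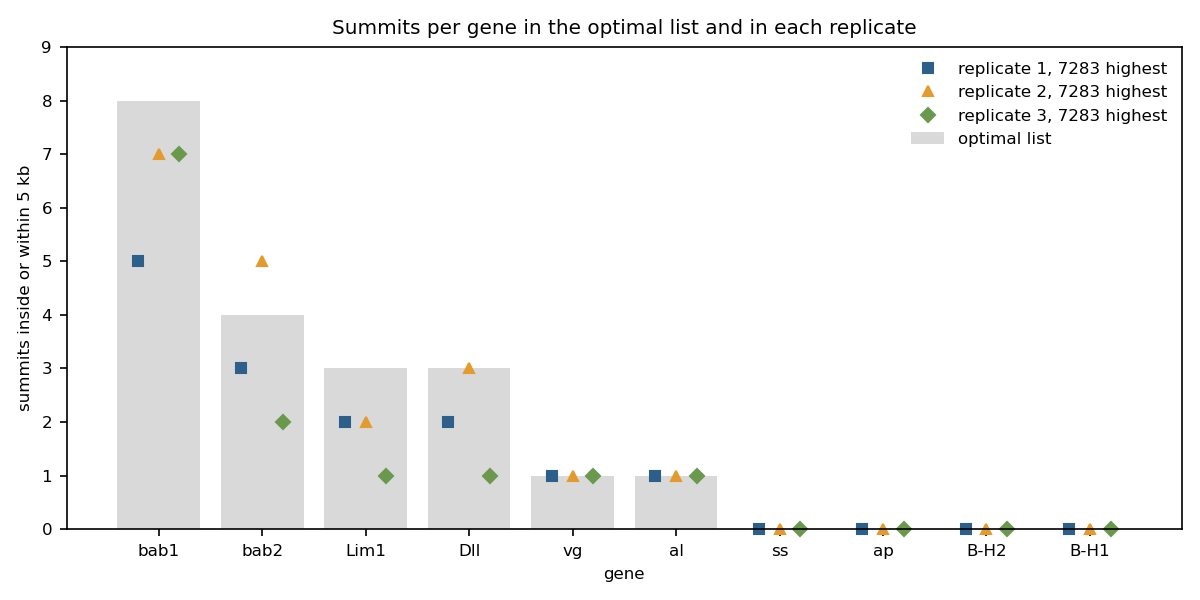
Bars give the number of optimal summits inside or within 5 kb of each gene, and symbols the number among the 7283 highest peaks of each replicate. Replicate 1 lies below the other replicates at bab1 (5 against 7 and 7), replicate 2 is highest at bab2 (5), and 4 genes are at 0 throughout.

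Per length, the 10 genes were close to the arms in the optimal list but below genes of their span range. In each replicate they were below the arms, in replicate 2 only slightly. Their windows cover 362 kb and held 0.552 optimal summits per 10 kb, beside 0.529 over the arms and 0.569 over the summed windows of all protein-coding genes. Genes in the members' span range had 0.700 per 10 kb. In the replicates' 7283 highest peaks the members' density was 0.387, 0.525 and 0.359 per 10 kb (mean 0.423 ± 0.0888 SD, n = 3), beside 0.529 over the arms in each. The optimal density of the members was therefore above that of each replicate. Without bab1 and bab2, which take 33.6% of the window and 60.0% of the summits, the other 8 genes had 0.332 per 10 kb.

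**Figure D3:**
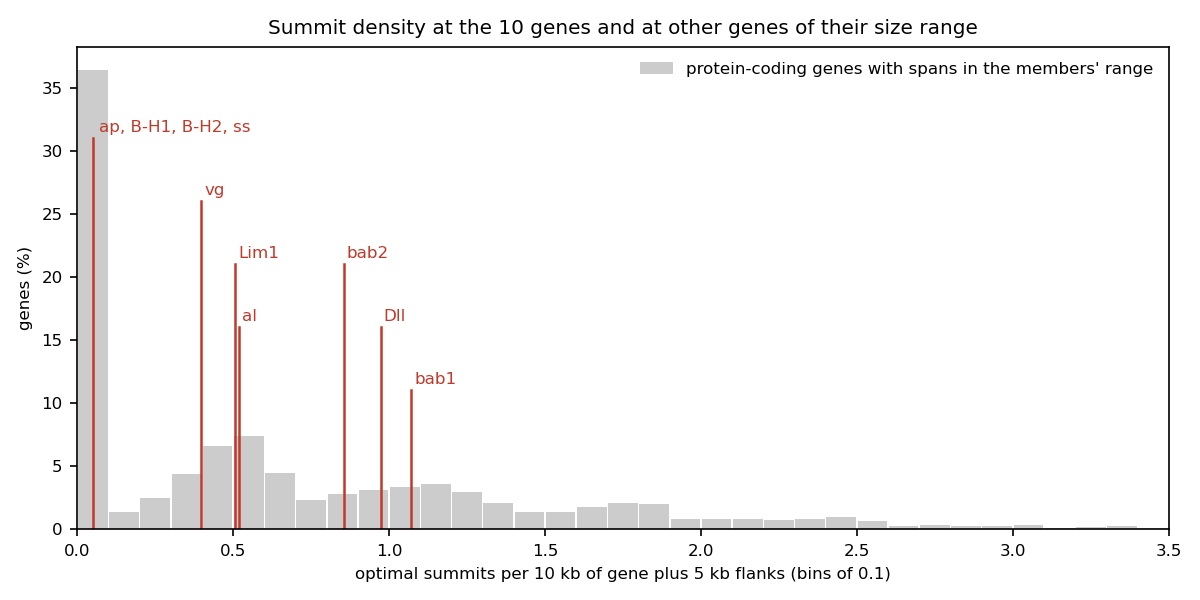
Grey bars give the share of protein-coding genes with spans in the members' range (n = 2879) in each bin of optimal summits per 10 kb, and red lines mark the 10 members by value, those at 0 drawn in the middle of the first bin. The x axis ends at 3.5, above which 22 genes lie. The member with the highest density, bab1 at 1.07, has 26.3% of these genes above it.

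Most of the summits at bab1 formed a run in its first intron. The gene bab1 (FBgn0004870, dm6 3L, 1036369 to 1101089, minus strand) encodes a BTB-domain transcription factor of the tarsus, ovary and abdominal epidermis. Its 7 intronic summits all lay in intron 1 of 3, between 1084615 and 1097144, a stretch of 12.5 kb that starts 3945 bp downstream of the TSS. The highest of them (1089371 to 1089594, score 287, the authors' signal value) ranked 1449 in the optimal list and 1119, 1656 and 2020 in replicates 1, 2 and 3. The next (1097055 to 1097219, score 218) ranked 2222, and 2154, 2372 and 2946 in the replicates. The ranks of these 2 peaks, whose sequences are the first and second intronic ones above, spread over 1.81-fold and 1.37-fold across the replicates.

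The other 5 intronic summits of bab1 were lower, and their ranks in the replicates spread over 1.11-fold (2 replicates) to 2.55-fold. The summit at 1087519 (score 148, rank 3787) ranked 7065, 3970 and 3017 in replicates 1, 2 and 3. That at 1088288 (score 103, rank 6009) was at 8102, 6271 and 4912. Replicate 1 gave the lowest place to both of these, and also to the summits at 1094340 (10522 beside 5989 and 7991) and 1084615 (12988 beside 7406 and 5091). The summit at 1090425 (rank 6912) was at 6647 in replicate 1 and 5966 in replicate 2 and had no summit within 100 bp in replicate 3. The last of them, 1084615, has a score of 88.1, where the optimal list ends at 87.7.

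The strongest summit assigned to bab1 lies in another gene. It is the highest of all 20 (3L, 1032650 to 1032937, score 501) and ranked 517 in the optimal list and 502, 612 and 493 in the replicates. It is 3559 bp beyond the 3' end of bab1, inside the gene trio, and 1887 bp from the TSS of CG9205, the nearest. Counting only the summits whose nearest protein-coding TSS is that of a member, an alternative chosen after seeing the data, left 17 of 20. The summits lost were this one, the single one at vg and 1 of Dll.

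The paralog bab2 (FBgn0025525, dm6 3L, 1140429 to 1177276, minus strand) had 4 optimal summits of moderate rank. Those in intron 2 of 4 lay 10060 bp (score 153, rank 3637) and 10857 bp (score 94.9, rank 6620) downstream of the TSS. The upstream one lay 977 bp from the TSS (score 151, rank 3701), and the downstream one 859 bp beyond the 3' end (score 145, rank 3886). Their ranks spread over 2.57-fold to 3.03-fold between replicates, beside 1.24-fold for the strongest bab1 summit. The upstream summit ranked 5993, 1975 and 5896 in replicates 1, 2 and 3, and the higher intronic one 2904, 3380 and 7574. The downstream summit was at 8539, 3326 and 4514 and the lower intronic one at 6637, 4406 and 12425. Replicate 2 placed 3 of these 4 highest, and none of the 4 kept its place within 2-fold across the replicates.

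The gap between bab1 and bab2 is 39.3 kb long and holds no other annotated gene. It contains 2 optimal summits, the downstream one of bab2 and 1 outside the 5 kb flanks, at 1129749 (score 224, rank 2144). The latter ranked 1892, 2342 and 2936 in the replicates, close to the second intronic summit of bab1. It was looked at after the counts were known and is not among the 20.

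Dll was the only member with an optimal promoter summit. Dll (FBgn0000157, dm6 2R, 24814822 to 24835667, plus strand) is the distal selector gene of the ventral appendages. Its promoter summit lay 105 bp upstream of its single annotated TSS (24814505 to 24814928, score 197) and ranked 2568 in the optimal list. It ranked 1687, 3629 and 3596 in replicates 1, 2 and 3, so that replicate 1 placed it highest and all 3 held it among their 7283 highest. A second summit lay 1047 bp upstream of the TSS (score 98.6, rank 6348; 4984, 12246 and 8145 in the replicates). Another lay 1183 bp beyond the 3' end (score 93.9, rank 6713; 8897, 6498 and 8589). Each of these was among the 7283 highest of 1 replicate only. The body of Dll between its first and last base held no optimal summit. The density at Dll was 0.973 per 10 kb, and 29.7% of genes in the span range were above it.

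The genes of the leg tip, Lim1 and al, lay near the middle of their size range in summit density, at 0.506 and 0.517 per 10 kb beside a median of 0.478. Of the genes in that range, 48.4% lay above Lim1 and 47.7% above al. Lim1 (FBgn0026411, dm6 X, 8756539 to 8805804, minus strand), a LIM-homeodomain factor, is the second longest member and had 3 optimal summits. The highest lay 1001 bp beyond its 3' end (8755477 to 8755630, score 170, rank 3158) and ranked 3091, 3480 and 4084 in the replicates, a 1.32-fold spread. The intronic ones lay 5193 bp from a TSS in intron 1 (score 102, rank 6109) and 11120 bp from a TSS in intron 3 (score 88.6, rank 7184). Each of these was among the 7283 highest of 1 replicate, replicate 2 for the first (5126, beside 9042 and 7924) and replicate 1 for the second (6808, beside 9777 and 7997). The paired-type homeodomain gene al (FBgn0000061, dm6 2L, 378112 to 387439, plus strand) had 1 summit. It lay in intron 1 of 4, 4881 bp downstream of the TSS (382781 to 383204, score 176, rank 3020), and ranked 5102, 3134 and 3319 in the replicates. All 3 replicates held it, with replicate 1 lowest.

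The single summit at vg belongs by position to other promoters. The wing selector vg (FBgn0003975, dm6 2R, 12884201 to 12899385, plus strand) had no optimal summit in its body. The summit in its upstream flank (12879843 to 12880266, score 228, rank 2070) lay 4146 bp from its TSS inside Nmda1 and AspRS, 175 bp from a TSS of Nmda1, and within 500 bp of a TSS of AspRS, which encodes a tRNA-charging enzyme. It ranked 2272, 2179 and 2079 in replicates 1, 2 and 3, the most even ranks of the 20. In vg and its flanks the pooled list of 30000 entries, which reaches down to background, held 2 further entries.

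The genes ap, ss, B-H1 and B-H2 had no summit among the 7283 highest of any list. The pooled list still held 21 entries at these 4 genes, all below the optimal list. At ss (FBgn0003513, dm6 3R, 16374434 to 16403690, minus strand) the highest pooled entry was intronic and ranked 8097, with 7673, 12352 and 12089 in replicates 1, 2 and 3. At ap (FBgn0267978, dm6 2R, 5706202 to 5727525, minus strand) the highest was intronic too, at rank 9903. It ranked 8614 in replicate 1 and 11997 in replicate 2, with no summit within 100 bp in replicate 3. An intronic summit of replicate 3 at 5713795 (rank 11888) lay just beyond 100 bp of that pooled summit, at 5713694. The highest pooled entry of ss (score 79.7) lay nearer to the end of the optimal list, at a score of 87.7, than that of ap (65.7). The Bar genes were far lower. At B-H1 (FBgn0011758, dm6 X, 17397478 to 17403278, plus strand) the highest was a promoter entry 236 bp upstream of the TSS at rank 14116, with 13257, 20932 and 21872 in the replicates. At B-H2 (FBgn0004854, dm6 X, 17314581 to 17324175, plus strand) it was an intronic entry at rank 20733, with 9530 and 29152 in replicates 1 and 2 and none within 100 bp in replicate 3.

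The 73.3 kb between B-H2 and B-H1, which holds only the gene lncRNA:CR43491, contained 2 optimal summits. Like the one between bab1 and bab2, they lie outside the 5 kb flanks and were looked at after the counts were known. The higher lay at 17351755 (score 123, rank 4796; 4450, 7205 and 5890 in the replicates) and was found among the 7283 highest of all 3. The lower lay 8431 bp beyond the 3' end of B-H2 (score 98.5, rank 6357; 9909, 8845 and 5258 in the replicates). Another alternative chosen after seeing the data took the flank out to the neighbouring protein-coding gene on each side. The 10 genes then had 25 summits over 598 kb, or 0.418 per 10 kb. Such windows stop at the neighbouring gene and leave out the bab1 summit inside trio, so the 25 do not include all of the 20.

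Entries of low rank were present at more promoters. In the pooled list of 30000, 6 of the 10 genes had an entry within 500 bp of a TSS, as did 28.3% of all protein-coding genes. Besides Dll and B-H1 these were ap (339 bp from a TSS, rank 11414), al (194 bp, rank 12277), bab2 (99 bp, rank 24595) and Lim1 (90 bp, rank 28178). The entry at Lim1 had no counterpart within 100 bp in any replicate, and that at bab2 had 1 in replicate 3 only. All 10 genes had some entry inside or within 5 kb, beside 64.3% of protein-coding genes. These lists were made to include background, so such entries were not counted as sites. The 10 genes are also long, with a median span of 21085 bp beside 2164.5 bp for all protein-coding genes. Neither the 28.3% nor the 64.3% was limited to genes of such size, so an excess cannot be read from them.

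The replicates held the same leading summits and differed over the lower ones. Of the 20 optimal summits, 9 were matched within 100 bp by a top 7283 peak in each of the 3 replicates, 5 in 2 replicates and 6 in 1. The share in all 3 was thus 45.0%, and 56.1% over the whole optimal list. The 9 were the highest summits of bab1, Dll, al, Lim1 and vg, the upstream summit of bab2 and 3 of the intronic ones of bab1. Of the 20, 8 ranked 3641 or higher, the upper 50% of the optimal list, and their median rank was 3836.5, beside 3642 for the list. Intronic summits had a median rank of 6059 and flank summits one of 3701. The optimal list was made from these replicates, so the matching is not an independent check. Kept only where matched in both other replicates, 11 of the 20 summits were left without replicate 1, 9 without replicate 2 and 12 without replicate 3 (55.0%, 45.0% and 60.0%, beside 67.0%, 65.8% and 63.4% of all optimal summits).

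**Figure D4:**
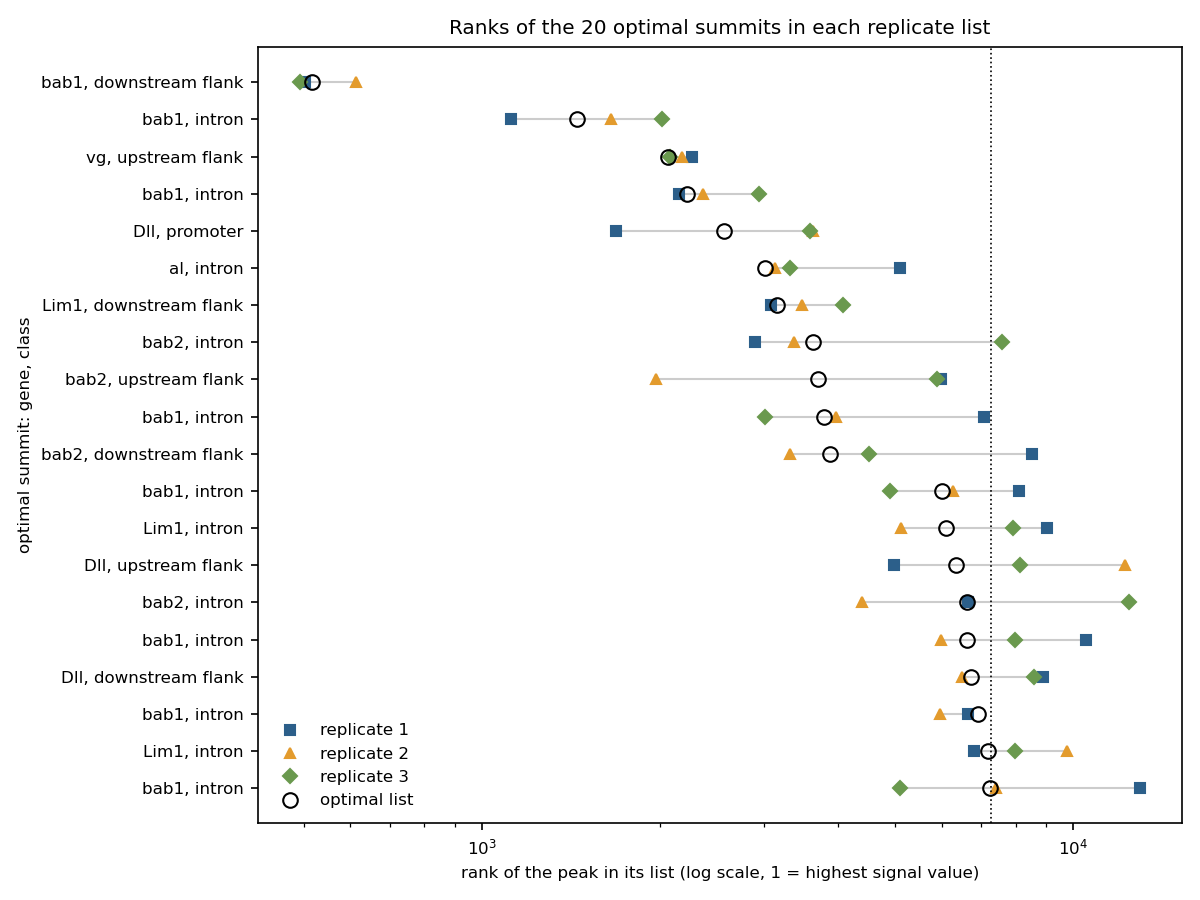
Each line is 1 of the 20 optimal summits, ordered by its rank in the optimal list (open circle), with its rank in each replicate as a filled symbol on a log x axis, and the dotted line marks rank 7283. The top 7 lines lie left of the dotted line in every replicate. From rank 6009 down, every line has a replicate to the right of it or, for the summit at 1090425 of bab1, lacks replicate 3.

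In base composition and motifs the 20 summit windows showed little in common. The median GC content of these windows, 50 bases to either side of a summit, was 34.2% (24.8% to 68.3%), beside 32.7% over all optimal summits. The 10 motifs were searched on both strands. Those of general promoter and insulator factors were GAGAG, read by the GAGA factor, the repeat CACACACA, TATCGATA, read by the replication-related factor DREF, and GGTCACAC, read by the promoter factor M1BP. Those of early and hormonal regulators were CAGGTA, which is read by the zinc-finger factor Zelda, and AGGTCA, which is read by nuclear receptors. The E box was searched as the letters CACGTG. Homeodomain factors were represented by the core TAATTA. The letters GATAAG stood for the family of GATA factors. For Scalloped, the partner of vg, the letters were CATTCC. Of these, AGGTCA was in 2 of the 20 windows, shown above for Lim1 and bab2, and in 1.88% of all optimal windows. GAGAG was in 1 window, the upstream one of Dll, beside 13.3% of all. CACACACA was in the upstream window of bab2 (1.77% of all), TAATTA in 1 intronic window of Lim1 (8.06%) and GATAAG in 1 intronic window of bab1 (5.04%). The letters of the E-box, Zelda, DREF, M1BP and Scalloped motifs were in none of the 20 windows, and in 0.673%, 1.80%, 0.522%, 0.453% and 3.49% of all. Matches in 1 or 2 windows are too few to compare.

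Other genes of appendage patterning were also a mix of genes with and without an optimal summit. Their share with a promoter summit was above the 1 of 10 of the members, a difference that was not tested. In a list of 36 such genes, 21 (58.3%) had an optimal summit inside or within 5 kb and 9 (25.0%) had one at a promoter, beside 41.2% and 14.1% of all protein-coding genes. Of the 36, 10 lie outside the members' span range. Among the 26 inside it, 18 (69.2%) had a summit and 7 (26.9%) a promoter summit, beside 63.6% and 30.0% of all genes in that range. The median was 1 summit per gene, as for the members. The highest promoter summit was at bowl (score 608, rank 329, and 474, 350 and 262 in the replicates), a zinc-finger gene of leg joints. Next came salr (score 214, rank 2289), sob (185, 2831), fng (170, 3157), dac (117, 5131) and caps (113, 5371). The dac summit lay 500 bp from the TSS, at the limit of the promoter class. The gene fng encodes a modifier of Notch at the wing margin, and dac marks the middle of the leg. At sob the summit ranked 11413 in replicate 3, and at dac it had no summit within 100 bp in replicate 3. At caps it ranked 9940 in replicate 2. The most summits inside or within 5 kb were at hth (16), which specifies proximal limb fate, Bx (12), which encodes a LIM-only antagonist of ap, bowl (9), fng (8), Ser (8) and bi (7). Of the direct partners of members, sd, which encodes the Scalloped partner of vg, had 1, and Chi, the cofactor gene of ap, and tgo, the partner gene of ss, had none.

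The 3 genes of similar size nearest to bab1 in summit density were picked from these same values, so their likeness comes from the selection. Among 565 non-member protein-coding genes with 0.5 to 2 times its span, the 3 nearest in summits per 10 kb over the 3 replicates were Dyrk2 (distance 0.120), Pgant9 (0.143) and Glut4EF (0.166). The values of bab1 were 0.669, 0.937 and 0.937 per 10 kb in replicates 1, 2 and 3, and those of Dyrk2 were 0.671, 0.838 and 1.01. In the optimal list Dyrk2 had 4 summits, Pgant9 7 and Glut4EF 10, beside 8 at bab1.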

How the data were processed

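Per the labels, chromatin from 3 biological replicates of whole pupae was sonicated, recovered through the GFP tag on Pif1A and sequenced. The authors deposited narrowPeak lists whose signal value per peak was used only to rank and describe peaks within a list. The replicate lists and the pooled one, of 30000 entries each, mix peaks with background and feed the irreproducible discovery rate (IDR) step, per the deposited notes. The optimal list is what passed its threshold, and its 7283 entries equal the top of the pooled list. Aligner, peak caller and IDR threshold: not given in the sources used here. No list holds reads, so depth is unknown. The dm3 lists were not used.

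Summits were placed on Ensembl release 115 genes (dm6), without pseudogenes and transposable elements, with Python 3.11.15 and pandas 2.3.3. A summit was first called promoter (within 500 bp of a TSS of the member), then exon, intron or flank. As many highest peaks as the optimal list holds were taken from each replicate. A match was a summit within 100 bp. Motifs were read within 50 bp of summits. All members and all 36 other genes were matched by symbol. Matching was tested on simulated data. The test of counting only repeated the window rule on planted positions, so it did not check the counting or classing used here. The members and lists were chosen with earlier results of these data known. Genes named besides the members are the 6 other appendage genes with the highest promoter summit, the 6 with the most summits, the 3 most like bab1, and genes at a named summit. The sequences of bab1 beyond its highest summit, and sd, Chi and tgo, were chosen after values were seen, as were the class shares at other genes and the split of the 36 by span. Alternatives changed the flank, the promoter distance, the list, the matching and the replicates used.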

Additional observations from a re-analysis of the deposited data

How the results depend on the processing

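Of 36 recomputed values, 23 stayed within 1.5 times the reported count or within 1 SD of the replicates for the density. The 20 summits fell to 12 with no flank and to 8 in the upper 50% of the optimal list, and to between 9 and 12 when a replicate was left out. The density of 0.552 per 10 kb became 0.458, 0.221 and 0.249 to 0.331 in the same sets. Members with a promoter summit numbered 2 with 1000 bp. Of the 9 summits matched in all 3 replicates, 4 remained inside the genes alone, and 19 matched when any rank was allowed. Leaving out a replicate kept only the summits matched in both others, which cannot raise the 20 or the density, nor can shortening the list. The summits so matched numbered 9 to 12, beside the 9 matched in all 3, and the promoter count stayed at 1. Leaving out a replicate cannot lower the matched count. The same 9 to 12 summits enter the 36 values both as the total and as the matched count, so the 36 are not independent. No paired analysis was possible because there is 1 group. The unknown depth and the lack of untagged flies here limit every count, and with 20 summits a difference of a few between genes cannot be read.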
